A study of Rattus norvegicus with 12 samples.

Results

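The aryl hydrocarbon receptor system was followed in primary aortic smooth muscle cells of newborn rats after stimulation of thrombin receptors. Its 8 genes were Ahr, Arnt, Ahrr, Tiparp, Cyp1a1, Cyp1b1, Nqo1 and Nfe2l2. All probe sets of the array whose annotation gives exactly 1 gene symbol, and 1 of these, were taken, which gave 10 of the 20826 probe sets with a single symbol. Tiparp and Ahrr were picked on their own signals in an earlier analysis of these arrays, so their values are described here with no test. The other 6 genes were listed as parts of the same pathway once those results were known, and p-values are given for them with that limit.

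The 12 arrays form 6 groups of 2, an unstimulated and a stimulated group in each of 3 experiments, all on cells without serum overnight. Cells received thrombin at 2 U/ml, the receptor-activating peptide TRAP at 25 µM, or the same dose of TRAP following exposure for 24 h to 200 ng/ml of PTX, and stimulated cells were taken at 120 min. Thrombin is a clotting protease that cleaves its receptors, TRAP activates a receptor without proteolysis, and PTX is pertussis toxin, which uncouples receptors from Gi proteins. The labels name no agent but "none" for all unstimulated cells, those of the PTX experiment included, so the effects of TRAP and of PTX itself cannot be told apart in that experiment. Each stimulus was given in an experiment of its own, so differences between stimuli and differences between experiments cannot be told apart. Nothing in the labels ties the 2 arrays of a group to different cultures, and the p-values cover only the spread of these arrays, which may be technical.

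The aryl hydrocarbon receptor, encoded by Ahr, is a transcription factor that waits in the cytoplasm with chaperones until a ligand such as dioxin or a tryptophan metabolite binds it. It then enters the nucleus, pairs with the protein encoded by Arnt and binds xenobiotic response elements, which share the core GCGTG. Its targets include the monooxygenases Cyp1a1 and Cyp1b1, the quinone reductase Nqo1, and the feedback inhibitors Ahrr, a repressor that competes for Arnt, and Tiparp, an ADP-ribosyltransferase that lowers receptor activity. Nfe2l2 encodes NRF2, the factor of the oxidative stress response, which also drives Nqo1. In vascular cells the receptor is known for its part in development and in responses to smoke and shear stress.

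Promoter windows of the 3 genes with the clearest joint rise after TRAP are shown because that rise is the pattern the rest turns on. RefSeq promoters of build GRCr8 matched 7 of the 8 genes by gene number, and Cyp1a1 did not. The 250 bases before the start of transcription were searched on both strands for the core GCGTG. In the lines below capitals mark this core, written as CACGC where it lies on the opposite strand. The windows are Ahrr at chr1:30821969-30822218, Tiparp at chr2:152063519-152063768 and Cyp1b1 at chr6:21094315-21094564, each on the plus strand and upstream of the gene.
Ahrr: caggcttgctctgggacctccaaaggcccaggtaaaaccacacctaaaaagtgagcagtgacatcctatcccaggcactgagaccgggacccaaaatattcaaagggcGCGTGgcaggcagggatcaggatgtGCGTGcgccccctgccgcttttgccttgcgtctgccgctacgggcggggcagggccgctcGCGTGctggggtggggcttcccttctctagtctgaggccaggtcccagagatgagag
Tiparp: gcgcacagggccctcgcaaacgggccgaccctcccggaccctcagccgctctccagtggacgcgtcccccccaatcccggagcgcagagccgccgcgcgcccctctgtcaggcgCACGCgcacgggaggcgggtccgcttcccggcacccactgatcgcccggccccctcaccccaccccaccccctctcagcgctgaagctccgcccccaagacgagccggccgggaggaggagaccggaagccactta
Cyp1b1: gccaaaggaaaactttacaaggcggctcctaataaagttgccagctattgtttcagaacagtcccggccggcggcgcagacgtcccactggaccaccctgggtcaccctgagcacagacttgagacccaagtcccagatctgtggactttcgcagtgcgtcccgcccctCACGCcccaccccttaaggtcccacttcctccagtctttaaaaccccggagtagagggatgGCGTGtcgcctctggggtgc

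The Ahrr window held the core 3 times, at 142 to 138, 117 to 113 and 57 to 53 bases before the start. Cyp1b1 held it 2 times, at 81 to 77 and at 20 to 16, and Tiparp 1 time, at 136 to 132. Arnt and Nqo1 held it 1 time each, and the windows of Ahr and Nfe2l2 did not contain these letters. Of all 33469 promoter windows 25.9% held the core and 2.58% held it at least 3 times. Of the 8454 windows with at least 60% G and C, these shares were 53.2% and 7.62%, and the Ahrr and Tiparp windows have 62% and 74.8%. The antioxidant element TGACNNNGC, at which NRF2 binds, was present 2 times in Arnt and in no other of the 7 windows, against 10.1% of all windows. A match of letters describes the sequence and is not a measured binding site.

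Signals on every array were on the authors' scale, with an array median between 39.7 and 53.6. Replicate arrays correlated with r from 0.983 to 0.991 and arrays of the thrombin experiment with those of the TRAP experiments with r from 0.913 to 0.941, over the 18625 probe sets bright enough to test. All 8 smooth muscle markers were bright enough to test, with Acta2 at 4568.2 to 9115.4 and Tagln at 3747 to 7748.9. The dimmest of them were Des at 15.8 to 52.9, Myh11 at 15.8 to 65.8 and Mylk at 44.5 to 144.1. Of 7 endothelial markers 6 were below the limit for testing, Pecam1 and Vwf at or below 17.3, and Tek read 20.1 to 85.7. Of 7 leukocyte markers 5 were below it, with Ptprc at or below 12, and Cd14 read 296.9 to 578.4. The summed signal of 8 smooth muscle markers was 11750 in unstimulated cells of the thrombin experiment and 19651 and 19490 in those of the TRAP and PTX experiments. That of 6 fibroblast markers was 5659, 7878 and 7773. Fewer cells of a type and less RNA per cell cannot be told apart in such samples, and the part of these differences in the results was not tested. In the acute-phase gene Saa3 the 8 arrays of the TRAP experiments fell into a dim and a bright set that cut across their labels, with TRAP replicate 1 (222.5) and TRAP after PTX replicate 1 (20.3) outside the set of their own unstimulated arrays. Whether the labels of these 2 arrays were exchanged cannot be settled here. The TRAP response, the TRAP after PTX response and every comparison of the 2 carry that doubt.

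Ahrr, Cyp1a1, Cyp1b1, Nqo1, Nfe2l2 and the first probe set of Tiparp and the brighter of Ahr had higher signals 2 h after TRAP than before it, with and without PTX, and none of the 8 genes had a clearly higher signal after thrombin. After TRAP both stimulated arrays lay above both unstimulated arrays in 7 of the 10 probe sets, and after PTX and TRAP in 8. Arnt lay below both unstimulated arrays in both TRAP experiments, and so did the dim second probe set of Ahr after TRAP. None of these changes was called, and the share of all probe sets that lay below is not given, so they are only described. Without Ahrr and Tiparp, which were chosen for their values, 4 of the 5 probe sets bright enough to test lay above after TRAP and 4 of 5 after PTX and TRAP, where 19.2% and 18.1% of all 18625 did. After thrombin 1 of these 5, Cyp1b1, lay below both unstimulated arrays, where 28.6% of all did. None of the 5 lay above, but the share of all probe sets that did is not given, so this is only described. The changes were also taken without TRAP replicate 1 and TRAP after PTX replicate 1, the 2 arrays outside their set. That leaves 1 stimulated array in each TRAP experiment, so only sizes are given. With TRAP and TRAP after PTX Cyp1b1 then measured 1.00 and 0.84 (log2), Nfe2l2 0.50 and 0.58 and Nqo1 0.75 and 1.17. The brighter Ahr probe set measured 0.53 in both, and Arnt -0.35 and -0.05. The first Tiparp probe set measured 1.41 and 1.76, the second 0.14 and 2.09, and Ahrr 1.21 and 1.34.

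**Figure D1:**
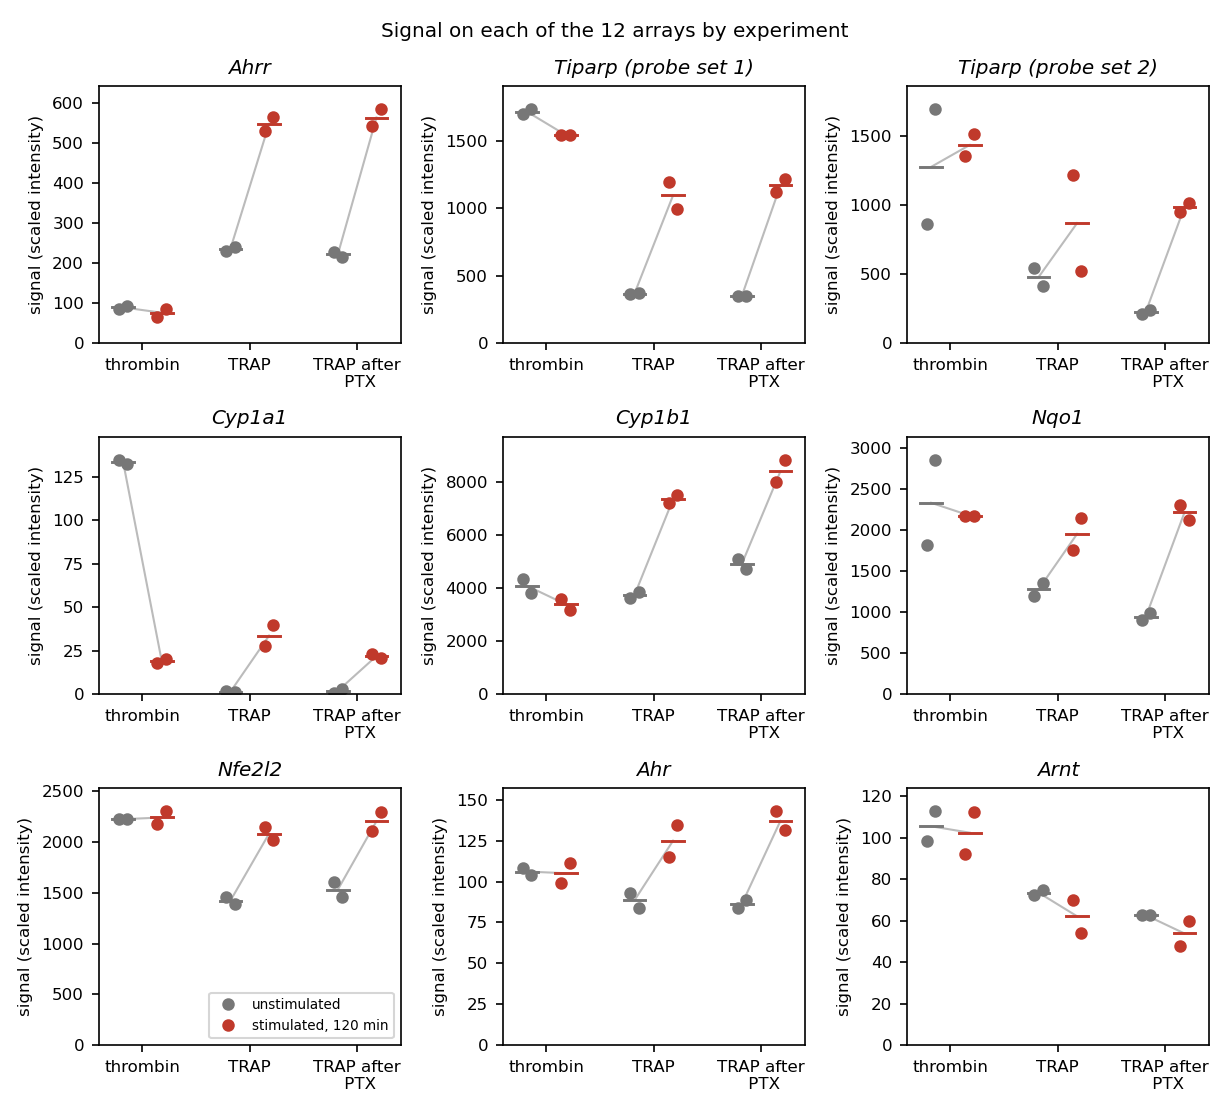
Scaled signal (linear axis from 0) of 9 probe sets of the receptor system on the 12 arrays, with grey points for unstimulated and red points for stimulated cells (2 arrays each), bars for the group means and lines joining the 2 groups of an experiment. Ahrr rose from 216 to 240 on the 4 unstimulated TRAP-experiment arrays to 530 to 583 on the stimulated ones, while its 4 arrays of the thrombin experiment lay between 65.0 and 91.9.

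The feedback genes come first. Ahrr read 230.9 and 240.3 in unstimulated cells of the TRAP experiment and 529.8 and 564.1 after TRAP. In the PTX experiment it read 226.3 and 215.8 before and 542.6 and 583.4 after stimulation. Around thrombin it read 86.1 and 91.9 before and 65.0 and 86.1 after. The stimulated and unstimulated arrays of both TRAP experiments were thus far apart, and those of the thrombin experiment touched at 86.1. The changes were 1.16 ± 0.13 (SE, log2) with TRAP, 1.29 ± 0.13 with TRAP after PTX and -0.21 ± 0.13 with thrombin. In the order of group means the thrombin experiment stood lowest (75.6 stimulated, 89.0 unstimulated), then the unstimulated PTX and TRAP groups (221.1 and 235.6), then TRAP (547.0) and TRAP after PTX (563.0). Of these neighbours the thrombin groups touched and the 2 TRAP-stimulated groups overlapped, and the other neighbours did not.

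Tiparp was measured by 2 probe sets. The first read 363.1 and 368.7 before TRAP and 1195.0 and 995.9 after it, and 349.8 and 347.1 before and 1122.4 and 1214.3 after PTX and TRAP. In the thrombin experiment it already read 1696.5 and 1732.2 in unstimulated cells, against 1539.4 and 1544.5 after thrombin. Unstimulated cells of that experiment therefore had a mean signal 4.80 times that of the 4 unstimulated arrays of the TRAP experiments, above every TRAP-stimulated array. The changes were 1.54 ± 0.10 (SE, log2) with TRAP, 1.70 ± 0.10 with TRAP after PTX and -0.15 ± 0.10 with thrombin. From low to high the groups stood as unstimulated PTX, unstimulated TRAP, TRAP, TRAP after PTX, thrombin and unstimulated thrombin, and the only neighbours that overlapped were the 2 TRAP-stimulated groups.

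The second Tiparp probe set was less even between replicates. It read 542.8 and 410.8 before and 1216.7 and 522.4 after TRAP, so that these groups overlapped. After PTX and TRAP it rose clear of its unstimulated arrays, from 212.5 and 240.2 to 952.9 and 1017.5. Around thrombin it read 860.1 and 1694.0 before and 1353.6 and 1518.6 after. The changes were 0.74 ± 0.32, 2.05 ± 0.32 and 0.24 ± 0.32 (SE, log2) in that order, and without TRAP replicate 1 the TRAP change was 0.14. Both probe sets had their highest unstimulated signals in the thrombin experiment.

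The target enzymes also had higher signals after TRAP. Cyp1b1, a monooxygenase made by vascular smooth muscle, was one of the brightest members, at percentile 99.3 of all probe sets by mean log2 signal. It read 3621.4 and 3851.7 before TRAP and 7226.0 and 7505.2 after it, and 5102.1 and 4728.5 before and 8008.8 and 8831.1 after PTX and TRAP. With thrombin it went from 4340.9 and 3831.4 to 3592.6 and 3188.7, a pair below both unstimulated arrays. Cyp1b1 rose by 0.98 ± 0.10 (SE, log2) with TRAP (limma adjusted p = 0.000119) and by 0.77 ± 0.10 with TRAP after PTX (adjusted p = 0.000948), and its change of -0.27 ± 0.10 with thrombin did not pass (adjusted p = 0.175). The difference between the thrombin and TRAP responses was itself called, at -1.24 ± 0.14 (adjusted p = 0.00172). Unlike Tiparp, Cyp1b1 had similar unstimulated signals in the thrombin and TRAP experiments, with a difference of 0.13 ± 0.10 (adjusted p = 0.35).

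Cyp1a1, the classical inducible target of the receptor, was dim. Its mean log2 signal lay at percentile 39.5, just under the limit of 40 for testing. It was tested in a fit of all 31042 probe sets and, since it passed the limit there, in the fit with a pseudocount of 64. It passed that limit with its unstimulated thrombin arrays far above all other arrays. Calls of that fit that use these arrays therefore add no support. It read 1.5 and 1.2 before TRAP and 27.5 and 39.7 after, and 0.8 and 2.8 before and 22.8 and 20.9 after PTX and TRAP. With thrombin it went the other way, from 134.4 and 132.5 in unstimulated cells to 17.7 and 19.9. All 4 unstimulated TRAP-experiment arrays were near the lowest signals of an array, so the pseudocount sets the size of any difference from them. Only the calls are given in this paragraph. In limma's fit of all probe sets Cyp1a1 fell with thrombin (adjusted p = 0.000228; 0.77% of probe sets were called down there). It rose with TRAP (adjusted p = 0.00368; 0.87% called up) and with TRAP after PTX (adjusted p = 0.0344; 0.738% called up), and the last of these calls was lost with a pseudocount of 64 (adjusted p = 0.0544). The thrombin response lay below the TRAP response (adjusted p = 0.000626; 0.0999% called down), and the unstimulated groups differed (adjusted p = 6.09e-07; 24.1% called).

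Nqo1 encodes a quinone reductase that answers to both the receptor and NRF2. It read 1195.5 and 1350.3 before TRAP and 1756.8 and 2142.5 after, and 896.4 and 980.7 before and 2295.9 and 2124.3 after PTX and TRAP. In the thrombin experiment unstimulated arrays read 1811.5 and 2844.6, on either side of the stimulated 2171.0 and 2172.5. Nqo1 rose by 1.22 ± 0.16 (SE, log2) with TRAP after PTX (limma adjusted p = 0.00108). Its change of 0.60 ± 0.16 with TRAP missed the threshold (adjusted p = 0.0587), and that with thrombin was -0.06 ± 0.16 (adjusted p = 0.891). The TRAP change passed in 8 of the 25 alternative analyses, with adjusted p from 0.00756 to 0.0440 there; without thrombin-experiment unstimulated replicate 1 it was 0.00768 and without replicate 2 of that group 0.00756. The PTX difference of 0.62 ± 0.23 did not pass (adjusted p = 0.467).

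Nfe2l2 read 1461.3 and 1385.1 before TRAP and 2148.9 and 2017.5 after, and 1607.3 and 1454.0 before and 2109.3 and 2299.4 after PTX and TRAP. In the thrombin experiment all 4 arrays lay between 2181.7 and 2301.8. Nfe2l2 rose by 0.54 ± 0.09 (SE, log2) with TRAP (limma adjusted p = 0.00403) and by 0.52 ± 0.09 with TRAP after PTX (adjusted p = 0.00758), and changed by 0.01 ± 0.09 with thrombin (adjusted p = 0.969). The TRAP call was lost without unstimulated TRAP replicate 2 (0.51, adjusted p = 0.0562). The call after PTX was lost without unstimulated replicate 2 of that experiment (0.45, adjusted p = 0.0806) and also without the stimulated replicate 2 (0.46, adjusted p = 0.0649).

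Calls for the receptor itself were weaker. The brighter Ahr probe set read 92.9 and 84.1 before and 115.2 and 134.8 after TRAP, and 83.6 and 88.8 before and 142.9 and 131.3 after PTX and TRAP. In the thrombin experiment it read 108.4 and 103.8 before and 98.9 and 111.2 after, and these overlapped. Ahr rose by 0.58 ± 0.14 (SE, log2) with TRAP after PTX (limma adjusted p = 0.0464), a call lost in each of the 12 analyses that leave out an array (adjusted p from 0.0522 to 0.227). Its change of 0.43 ± 0.14 with TRAP did not pass (adjusted p = 0.129), nor did that of -0.01 ± 0.14 with thrombin (adjusted p = 0.974). A second, dim Ahr probe set had signals of 1.1 to 34.2 and no called change. Arnt, the partner, read 62.6 to 74.7 on the unstimulated and 47.7 to 70.0 on the stimulated arrays of the TRAP experiments, and 92.3 to 112.8 in the thrombin experiment. Its changes of -0.20 ± 0.17, -0.18 ± 0.17 and -0.04 ± 0.17 with TRAP, TRAP after PTX and thrombin did not pass (adjusted p = 0.632, 0.645 and 0.938).

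**Figure D2:**
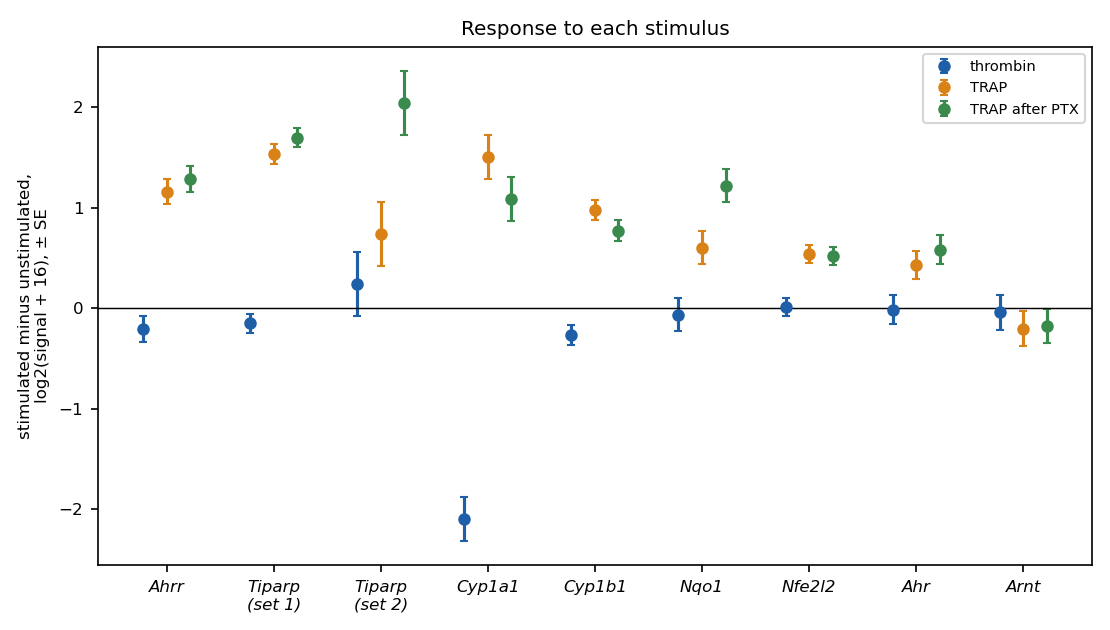
Change with each stimulus (stimulated minus unstimulated mean of log2(signal + 16), 2 arrays against 2) of 9 probe sets, with bars of 1 standard error. Cyp1a1 is from the fit of all probe sets, and the pseudocount of 16 sets the size of its changes. With TRAP and with TRAP after PTX all but Arnt lie above 0, while with thrombin Cyp1a1 stands at -2.10 and the others between -0.27 and 0.24.

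Counted over the 5 probe sets of Ahr, Arnt, Cyp1b1, Nqo1 and Nfe2l2 that were tested, 2 rose with TRAP, where 1.84% of all probe sets were called up. With TRAP after PTX 4 rose, against 1.68%, and the Ahr call among them was lost in each analysis that leaves out an array. In the average of the 3 responses 4 rose, against 5.55% up and 7.62% down. That average contains both TRAP responses, and with thrombin these 4 measured only -0.27 to 0.01. With thrombin none passed in limma's test, against 2.63% up and 2.1% down, and 1 of the 5 had an unadjusted p under 0.05, Cyp1b1. For the thrombin response minus the TRAP response 1 was called down, against 0.209%. For Nfe2l2 that difference was -0.53 ± 0.13 (SE, log2; adjusted p = 0.0975), for Nqo1 -0.67 ± 0.23 (adjusted p = 0.3) and for Ahr -0.44 ± 0.20 (adjusted p = 0.481). In Ahrr and the first Tiparp probe set, described with no test, it was -1.37 ± 0.18 and -1.69 ± 0.14. In the second Tiparp probe set it was -0.49 ± 0.45, and 0.10 without TRAP replicate 1.

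The rise after TRAP was also compared with and without PTX. This comparison cannot show whether the rise needs Gi, since PTX was given in a separate experiment and 2 arrays may carry exchanged labels. None of the 5 differed between the 2 responses in limma's test, against 0.129% of all probe sets called up and 0% down, and 1 of the 5, Nqo1, had an unadjusted p under 0.05. The TRAP after PTX response minus the TRAP response was -0.20 in Cyp1b1, with a 95% interval of -0.51 to 0.11, and -0.02 in Nfe2l2, with an interval of -0.30 to 0.25. In Nqo1 the interval ran from 0.12 to 1.12 and in Ahr from -0.28 to 0.59. A p that misses the threshold does not show that the 2 responses are alike. Ahrr and the first Tiparp probe set differed by 0.13 ± 0.18 and 0.16 ± 0.14 (SE, log2). The second Tiparp probe set differed by 1.31 ± 0.45, with an interval of 0.34 to 2.28, so the 2 probe sets of this gene disagree.

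**Figure D3:**
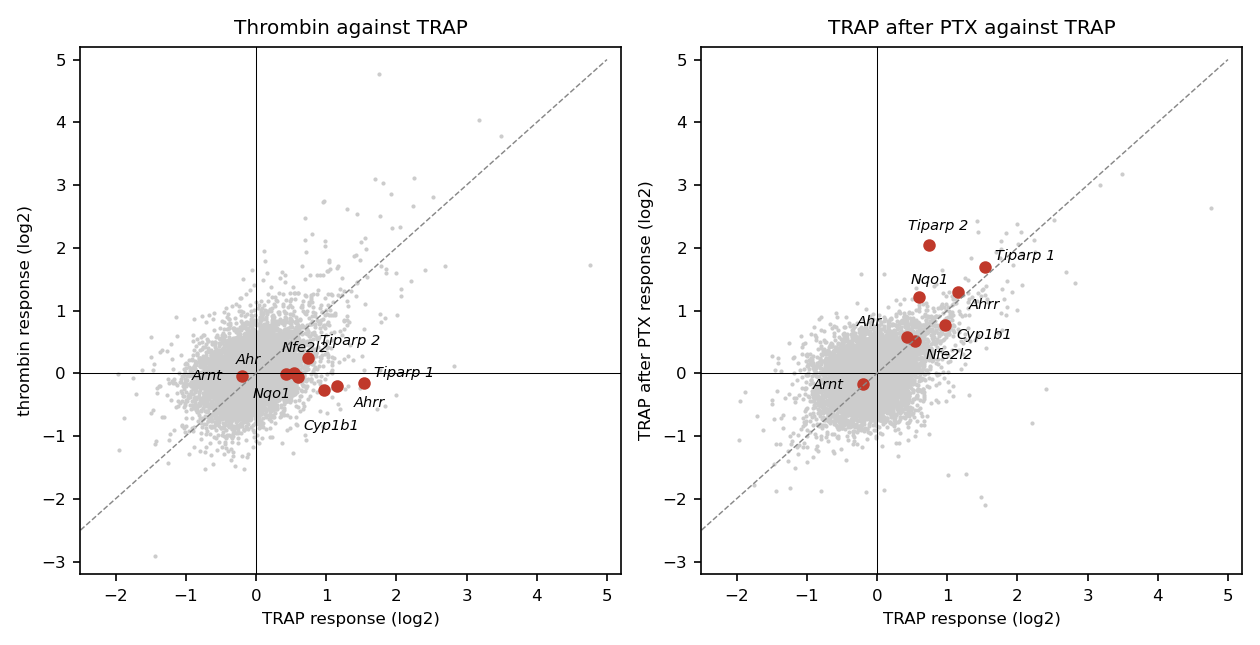
Responses of all 18625 tested probe sets (grey) on the log2 scale, with the TRAP response on the horizontal axis and the thrombin response (left) or the TRAP after PTX response (right) on the vertical axis. Red points are probe sets of the receptor system, Tiparp 1 and 2 being its 2 probe sets, and the dashed line marks equal responses. In the left panel Tiparp 1, Ahrr and Cyp1b1 lie at 0.98 to 1.54 with TRAP and between -0.27 and -0.15 with thrombin.

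For scale, 342 probe sets were called up after TRAP and 162 of them were also called up after thrombin, which is 47.4% of the TRAP list and 33.1% of the thrombin list. The thrombin estimate was below 0 in 49 of the 342 (14.3%), and its median over them was 0.45. Of the 2 tested members on that list, Cyp1b1 had a thrombin estimate of -0.27 and Nfe2l2 of 0.01. With TRAP after PTX 174 of the 342 were called up, 50.9% of the TRAP list and 55.6% of the other, and 18 had an estimate below 0.

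Responses were then set beside the unstimulated levels. Unstimulated arrays differed between the experiments in 4 of the 5 tested probe sets (limma F test), but so did 42.2% of all probe sets, so the count says little of these genes in particular. Nfe2l2 was 0.64 ± 0.09 (SE, log2) higher in the thrombin than in the TRAP experiment before stimulation (adjusted p = 9.09e-05), and Nqo1 0.83 ± 0.16 higher (adjusted p = 0.00119). Arnt was 0.63 ± 0.17 higher in the thrombin than in the PTX experiment (adjusted p = 0.0108). The first Tiparp probe set was 2.18 ± 0.10 higher than in the TRAP experiment, Ahrr was lower by 1.26 ± 0.13, and Cyp1b1 and Ahr were within 0.13 and 0.23.

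Unstimulated signals were thus higher in the thrombin experiment for Tiparp, Nqo1, Nfe2l2 and Arnt, none of which rose with thrombin, and for Cyp1a1, which fell. Ahrr was lower there. Cyp1b1 was 0.13 above the TRAP and 0.27 below the PTX experiment (log2; limma adjusted p = 0.35 and 0.0506), and its unstimulated groups differed in the F test (adjusted p = 0.0175). After stimulation Nqo1 and Nfe2l2 reached like signals in all 3 experiments: the thrombin group minus the mean of the TRAP-stimulated arrays was 0.07 in both (log2). The same difference was 0.44 in the first and 0.68 in the second Tiparp probe set, and 0.68 in Arnt. It was -0.28 in the brighter Ahr probe set, -0.31 in Cyp1a1, -1.21 in Cyp1b1 and -2.65 in Ahrr. These differences share arrays with the responses and are given as values only.

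Receptor signals were set beside them in the same way. Unstimulated Ahr was 106.1 ± 3.25 (SD, n = 2) in the thrombin experiment, 88.5 ± 6.22 in the TRAP and 86.2 ± 3.68 in the PTX experiment, with an adjusted p of 0.273 in limma's F test. F2r, which encodes the thrombin receptor PAR1, read 3606.3 and 3313.5 in unstimulated cells of the thrombin experiment, 2917.3 and 3266.7 in the TRAP and 2767.8 and 2747.8 in the PTX experiment. F2rl1, which encodes PAR2, read 193.8 and 135.7, then 59.2 and 57.7, then 72.3 and 44.9. Among unstimulated arrays both were highest in the thrombin experiment. F2r rose with TRAP after PTX by 0.56 ± 0.09 (SE, log2; limma adjusted p = 0.00574), to 3964.3 and 4194.8, its highest signals, and measured 0.10 with thrombin and 0.12 with TRAP (adjusted p = 0.655 and 0.604).

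By Pearson correlation of log2(signal + 16) over the 12 arrays, 9906 genes were ranked for likeness to single members. The genes nearest to Tiparp were Nfe2l2 (r = 0.97), Ipmk, an inositol phosphate kinase (0.95), Rras2, a small GTPase (0.95), the AP-1 subunit gene Jun (0.95) and Cdip1 (0.95), with Nqo1 at rank 24 (0.90). Nearest to Ahrr were Lnc215 (0.98), Fam43b (0.975), LOC100909928 (0.97), Slc35e3 (0.96) and Mia3 (0.96), with Cyp1b1 at rank 193 (0.88). Between Ahrr and Tiparp r was -0.25. Nearest to Ahr were the cytokine gene Tslp (0.93), Ankrd50 (0.90), Mtmr10 (0.90), Zfand5 (0.89) and Clk1 (0.89). The arrays fall into 3 experiments and 2 states of stimulation, which all genes share, so these r describe the arrays and carry no p.

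Other genes of the pathway were taken from lists of 75 genes, of which 60 had a probe set with that single symbol and 45 were bright enough to test. With thrombin 4 of the 45 rose and 1 fell, where 2.63% of all probe sets were called up and 2.1% down. With TRAP 2 rose and 2 fell, against 1.84% up and 2.07% down. With TRAP after PTX 2 rose and none fell, against 1.68% up and 1.03% down. The thrombin and TRAP responses differed in none of the 45 in limma's test, and 3 of the 45 had an unadjusted p under 0.05, where 10.1% of all probe sets did.

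Regulators and targets of NRF2, 15 of the 45 genes, held most of the rises, all of them in Maff, Mafk and Srxn1. After thrombin 3 of 15 rose, where 2.63% of all probe sets were called up. After TRAP and after PTX and TRAP 2 of 15 rose, against 1.84% and 1.68%. The medians of the list were 0.03, 0.13 and 0.18 against -0.04 over all probe sets in each response. Maff, a small partner protein of NRF2, rose in all 3 experiments, by 0.92 ± 0.13 (SE, log2) with thrombin, 1.29 ± 0.13 with TRAP and 1.28 ± 0.13 with TRAP after PTX (adjusted p = 0.00117, 0.000117 and 0.000148). Its relative Mafk rose by 0.54 ± 0.11 with thrombin and 0.58 ± 0.11 with TRAP (adjusted p = 0.0123 and 0.00931) and measured 0.42 with TRAP after PTX (adjusted p = 0.0621). Srxn1, which repairs oxidised peroxiredoxins, rose by 0.59 ± 0.15 with thrombin and 0.81 ± 0.15 with TRAP after PTX (adjusted p = 0.0351 and 0.0103), and measured 0.55 with TRAP (adjusted p = 0.0571). These 3 had their rises with thrombin too, unlike Nqo1 and Nfe2l2.

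Of 6 further targets of the receptor that were tested, Il6 rose by 1.87 ± 0.43 with thrombin (adjusted p = 0.0245) and Cdkn1b, a cell cycle inhibitor, fell by 0.73 ± 0.12 (adjusted p = 0.00351). None of the 6 was called after either TRAP stimulus. Of 8 chaperones and partner proteins none was called in any of the 3 responses, with Hsp90ab1, the chaperone that holds the receptor, at -0.01, 0.12 and 0.07. Of 8 coactivators and corepressors Med1 fell by 0.46 ± 0.11 with TRAP (adjusted p = 0.0287). Of 7 relatives of Tiparp among the poly-ADP-ribose polymerases, Parp9 fell by 0.55 ± 0.14 with TRAP (adjusted p = 0.0462), and none rose in the 3 responses. Of the genes of tryptophan metabolism, which supplies ligands, 1 of 8 on the array was bright enough to test, and Maoa was not called.

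**Figure D4:**
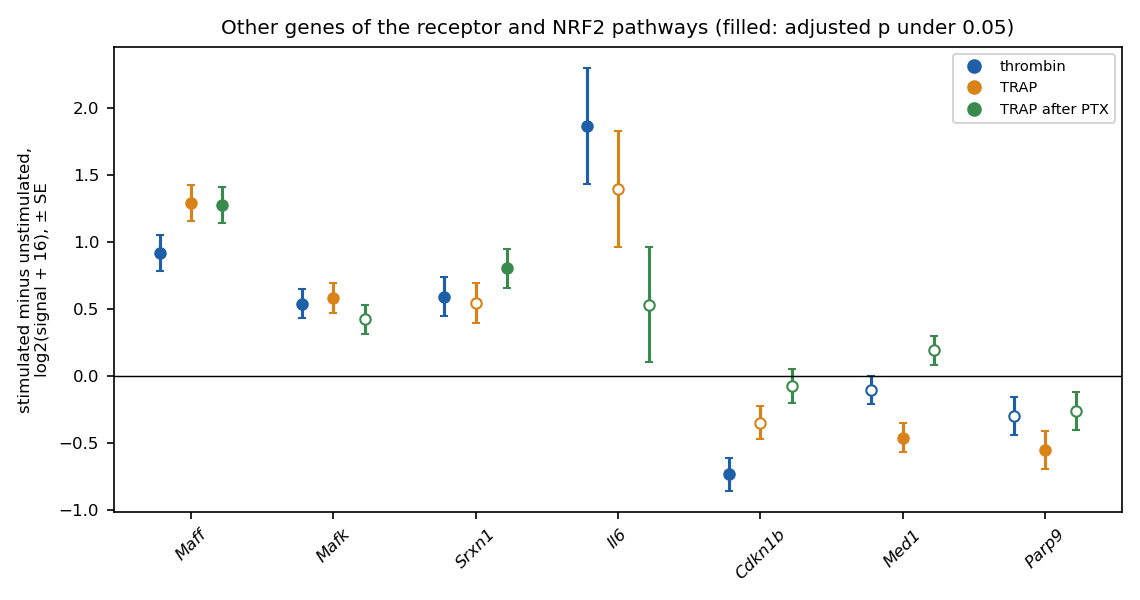
Change with each stimulus (log2(signal + 16), ± 1 standard error, 2 arrays against 2) of the 7 further pathway genes called in at least 1 response, with filled points for an adjusted p under 0.05 and open points for the rest. Maff is filled for all 3 stimuli, at 0.92 to 1.29.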

How the data were processed

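Biotin-labelled RNA of each of the 12 samples was read on an Affymetrix array of 1 colour. The authors deposited linear intensity, made with GCOS 1.4 per the submitters' processing notes, and an array's mean without its lowest and highest 2% was 198.9 to 199.9. Genome build, detection calls and further steps are not given in the sources used here. Depth has no meaning for arrays, and their number limits the precision, with a median standard error of a response of 0.16 (log2).

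Values were taken as log2(signal + 16), so low signals show smaller changes than they had. Probe sets had to exceed percentile 40 of the mean of these values, which kept 18625 once 57 controls were removed. Of the 10 member probe sets 8 were kept. A probe set has a gene where the array annotation lists 1 symbol (20826, against 436 with several and 9780 with none), and for pathway genes the brightest of the kept probe sets was used. One limma model covered all 6 groups (version 3.58.1, R 4.3.3; lmFit, then eBayes with a trend on intensity; 6 residual degrees of freedom), 2-sided, with Benjamini-Hochberg adjustment over all kept probe sets and a threshold of 0.05. The script was checked on simulated data.

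The members, lists, tests and alternatives were chosen with earlier results of these data known. Named genes are the 8 members, the 5 genes most like Tiparp, Ahrr and Ahr, up to 4 genes per pathway list called in any of the 3 responses, F2r and F2rl1. Cell type markers come from lists, and Saa3, Hsp90ab1, Maoa, Hmox1, Txnrd1, Gclc, Gclm, Parp10 and Parp12 are named outside this rule, after their values were seen. Results were recomputed with other pseudocounts, filters or scalings, without the trend, with array weights, a replicate block, the compared arrays alone, all 6 unstimulated arrays as control, the array sets seen in Saa3 as a block or without the 2 arrays outside them, and each array left out in turn.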

Additional observations from a re-analysis of the deposited data

Results flagged for a closer look

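In 3 results the same contrast gave different effects in different experiments. For Cyp1b1 the thrombin response minus the TRAP response was -1.24 (log2), by limma's test of the difference itself, with both thrombin arrays below and both TRAP arrays above their unstimulated arrays. For Cyp1a1 it was -3.61 in the fit of all probe sets, again by a test of the difference. Its unstimulated TRAP arrays read 1.5 and 1.2, near the lowest signals, so the pseudocount sets that size, and it was -1.83 with a pseudocount of 64. Cyp1a1 passed the filter of that fit with its unstimulated thrombin arrays far above the rest, so that fit adds no support. For the first Tiparp probe set both thrombin arrays lay below and both TRAP arrays above their unstimulated arrays. The difference of -1.69 was not tested, since the gene was chosen for its values. Its thrombin change was only -0.15 ± 0.10 (SE, log2), and 28.6% of all tested probe sets lay below in that experiment. The second Tiparp probe set did not share this pattern. It changed by 0.24 ± 0.32 with thrombin, and its TRAP groups overlapped. Its difference was -0.49 ± 0.45, and 0.10 without TRAP replicate 1. Opposite directions are thus not established for this gene. Groups of 2 arrays are too small for a check of single outlying arrays.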

How the results depend on the processing

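Cyp1b1 kept its direction and its calls after TRAP (0.80 to 1.04) and TRAP after PTX (0.66 to 0.99) in all 25 alternatives, and its thrombin minus TRAP difference (-1.33 to -1.15) in all 24 that give one. Of the members other than Ahrr and Tiparp, the 0 called with thrombin became 1 with a pseudocount of 64, with no filter (both Cyp1a1) and with quantile normalization (Cyp1b1, -0.34), and 3 with all 6 unstimulated arrays as control, where Nqo1 turned from -0.06 to 0.63. With that control the thrombin change of the first Tiparp probe set was 1.32 and that of Ahrr -1.02, since the unstimulated levels of the experiments differ. The 1 called in the thrombin minus TRAP difference became 2 with a pseudocount of 64 or no filter (Cyp1a1). With a pseudocount of 64 Cyp1a1 passed the filter with its unstimulated thrombin arrays far above the rest, so its thrombin calls there add no support. Cyp1a1 was called up with TRAP after PTX with no filter but not with a pseudocount of 64 (adjusted p = 0.0544). With an array left out the counts ran from 1 (without unstimulated TRAP replicate 2) to 3 for TRAP (2 with all), from 2 (without unstimulated or stimulated replicate 2 of that experiment) to 3 for TRAP after PTX (4 with all), and from 1 to 2 (without unstimulated replicate 1 of the thrombin experiment) for thrombin minus TRAP (1 with all). Whether replicate numbers pair the arrays is not stated. Deviations of same-numbered arrays correlated with r = 0.13, 0.10 and 0.02 in the thrombin, TRAP and PTX experiments, which does not settle it. With the replicate block 0, 3 and 3 members were called with thrombin, TRAP and TRAP after PTX, and Nqo1 passed with TRAP (adjusted p = 0.0332) while Ahr lost its call after PTX (adjusted p = 0.0811).

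Calls over all probe sets moved more, being fewest for the 3 responses without thrombin replicate 1, unstimulated TRAP replicate 1 and TRAP after PTX replicate 1: 882 with thrombin (342 to 6573 over the alternatives), 727 with TRAP (208 to 2570), 505 with TRAP after PTX (149 to 2961), 2453 in the average (1628 to 2754), 99 for thrombin minus TRAP (23 to 143) and 24 for the PTX effect (0 to 47). The highest values of the 3 responses come from using all unstimulated arrays as control. Dim signals limit Cyp1a1, the second Ahr probe set and the 15 pathway genes under the filter.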

Other observations

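Averaged over the 3 responses, 5 of the 15 tested NRF2 regulators and targets rose, where 5.55% of all probe sets were called up. Besides Maff, Mafk and Srxn1 these were Hmox1, the heme oxygenase, by 0.74 ± 0.13 (SE, log2; limma adjusted p = 0.00198), and Txnrd1, a thioredoxin reductase, by 0.43 ± 0.07 (adjusted p = 0.00179). Both were named after their values were seen. Hmox1 measured 0.68, 0.74 and 0.79 with thrombin, TRAP and TRAP after PTX (adjusted p = 0.108, 0.0907 and 0.0806). Gclm and Gclc, which make glutathione, were not called in any response. In the same average 3 of 7 relatives of Tiparp fell, where 7.62% of all probe sets were called down. These were Parp9 by 0.37 ± 0.08, Parp10 by 0.44 ± 0.13 and Parp12 by 0.36 ± 0.07 (adjusted p = 0.00908, 0.0377 and 0.00419), while both Tiparp probe sets measured 1.03 and 1.01.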
